A study of Homo sapiens with 6 samples.

Results

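The 44 genes described here are neighbours on chromosome 19q13.2, from PPP1R14A to AKT2 (chr19:38251237-40285536 in hg38, 2.03 Mb), out of 41768 genes in the deposited table. They were chosen by position and by their higher FPKM in the PANC-1 libraries than in those of the other line, so that difference is described here and not tested. All 44 were found in the table. Of these, 38 averaged 1 FPKM or more (fragments per kilobase of gene per M fragments) over the 6 libraries and entered the fits, and 6 did not: GGN, SPRED3, MAP4K1, LGALS4, NCCRP1 and FCGBP. A further 5 genes, PPP1R14A, RYR1, LRFN1, GMFG and DLL3, were below 1 FPKM in each library of the other line and passed only through their level in PANC-1.

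The study sequenced poly(A)-selected RNA of 2 lines of pancreatic ductal adenocarcinoma, PANC-1, an established human line, and a line that the labels call 90. Each line has 1 library labelled NC and 2 labelled siALDOA, read here as small interfering RNA against ALDOA, the glycolytic enzyme aldolase A. The sources used here do not explain the names 90 and NC or how siALDOA 1 differs from siALDOA 2. Since separate cultures are not stated for the libraries of a line, errors and p-values cover only the spread from library to library, which may be a technical one.

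This segment of the long arm of chromosome 19 is known from pancreatic cancers, in a share of which it is gained, and AKT2, PAK4 and PAF1 are among the genes studied there. The genes have little in common by function: they encode subunits of the transcription machinery, the ribosome and the proteasome, signalling kinases, cytoskeletal proteins and enzymes. The libraries measured RNA, and DNA copy number was not measured.

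The level of ALDOA was 726 FPKM in the NC library of 90 and 262 and 318 in its siALDOA libraries, and 906 in the NC library of PANC-1 and 501 and 462 in its siALDOA libraries, lower than NC in each case. Depth was 17.7 to 21.8 M fragments per library, at which 3 fragments on a gene of 1 kb are 0.138 to 0.169 FPKM. Of 7 epithelial and ductal markers, KRT8 and KRT18, keratins of simple epithelia, were at 956 to 1969 FPKM in all libraries, while KRT7 was 905 to 1350 FPKM in 90 and 6.24 to 11.5 in PANC-1, and CDH1, the epithelial cadherin, 38 to 44.5 and 1.18 to 2.05. KRT19 (1720 to 2427 FPKM in 90, 652 to 845 in PANC-1) and EPCAM (88.6 to 154 and 7.51 to 17.5) were lower in PANC-1, and SOX9 (11.8 to 14.3 and 23.1 to 26.7) was higher. Of 4 mesenchymal markers, the filament gene VIM was at 593 to 802 FPKM in 90 and 1976 to 2322 in PANC-1 and CDH2 at 0.866 to 1.39 and 5.29 to 7.82, while FN1 went the other way, at 10.8 to 11.1 and 0.369 to 0.510. ZEB1 overlapped. Of the leukocyte markers, CD68 was at 31.3 to 51.2 FPKM in 90 and 124 to 162 in PANC-1, and PTPRC, CD3E and LYZ were at or near 0. INS was at 0 in all libraries. In bulk RNA, fewer cells with a transcript and less of it per cell cannot be told apart.

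To show what lies in front of these genes, the bases just upstream of 6 of them follow, each written 5′ to 3′ on the gene's own strand and trimmed to the part of the 250 bases before the RefSeq start (GRCh38.p14) that overlaps no GENCODE exon. RPS16 is shown as the most abundant of the 44 genes, and its stretch, chr19:39435950-39436155, minus strand, fills the space between RPS16 and SUPT5H, which is read in the other direction. The stretch of MED29, chr19:39391196-39391302, plus strand, is also the space between MED29 and PAF1. FBL (chr19:39846415-39846629, minus strand), PSMC4 (chr19:39970915-39971004, plus strand) and AKT2 (chr19:40285537-40285595, minus strand, the last gene of the interval) belong to the genes with the largest ratios. RINL (chr19:38878280-38878525, minus strand) is shown as the gene that was lower in PANC-1. Capitals mark the GC box letters GGGCGG, the CCAAT box letters CCAAT and the ETS letters CCGGAAG, on either strand.
RPS16: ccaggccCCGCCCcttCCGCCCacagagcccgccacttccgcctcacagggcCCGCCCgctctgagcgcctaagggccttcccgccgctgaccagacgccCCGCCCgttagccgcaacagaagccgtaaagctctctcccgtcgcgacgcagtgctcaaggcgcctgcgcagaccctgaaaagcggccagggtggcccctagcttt
MED29: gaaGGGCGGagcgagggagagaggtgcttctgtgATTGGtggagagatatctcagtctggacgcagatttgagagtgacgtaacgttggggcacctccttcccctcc
FBL: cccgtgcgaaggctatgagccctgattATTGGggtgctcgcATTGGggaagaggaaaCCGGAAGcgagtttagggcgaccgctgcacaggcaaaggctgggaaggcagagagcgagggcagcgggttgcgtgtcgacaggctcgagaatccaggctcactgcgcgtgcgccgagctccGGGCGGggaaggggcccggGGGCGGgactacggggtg
PSMC4: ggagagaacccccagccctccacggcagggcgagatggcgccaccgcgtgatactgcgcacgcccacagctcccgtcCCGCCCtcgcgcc
AKT2: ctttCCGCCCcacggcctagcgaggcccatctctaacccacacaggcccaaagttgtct
RINL: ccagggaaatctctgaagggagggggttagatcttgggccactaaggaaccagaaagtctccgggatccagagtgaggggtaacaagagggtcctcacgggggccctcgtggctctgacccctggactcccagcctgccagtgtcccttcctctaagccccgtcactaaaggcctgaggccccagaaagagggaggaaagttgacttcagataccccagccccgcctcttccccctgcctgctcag

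The stretches of RPS16, MED29, FBL, PSMC4 and AKT2 hold 1 or more GC boxes, with 4 in that of RPS16, and the stretch of RINL holds none. RefSeq promoters were matched for 39 of the 44 genes, leaving out C19orf33, CAPN12, ECH1, NCCRP1 and DLL3. The RefSeq start was found in a GENCODE transcript of the gene for 31 of the 39. RPS16, whose stretch is shown, was among those not found. In the full 250 bases the GC box was found in 29 of the 39 (74.4%), against 42.3% of 27305 promoters, and CCAAT in 18 (46.2%), against 33.0%. The letters CCGGAAG were in 4 (10.3%, against 8.8%), the E-box CACGTG in 2 (5.1%, against 6.5%) and TATAAA in 2 (5.1%, against 11.1%). The median number of CpG dinucleotides was 20, with a range of 4 to 40, against 11 over all promoters. It was 9 for the 9 matched genes that averaged under 1 FPKM in 90 and 21 for the others. The 27305 promoters were not limited to genes expressed in these lines, so the shares are not set against like genes. These matches describe the letters and do not show that a factor binds.

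In 42 of the 44 genes the lowest PANC-1 library lay above the highest 90 library, as it did for 13.2% of all 41768 genes. RINL was lower in every PANC-1 library, and the 2 lines overlapped for C19orf33. Among the 38 genes tested, 36 lay above without overlap, against 29% of the 12592 genes tested, and the median difference, PANC-1 minus 90, was 3.23 on the log2(FPKM + 1) scale, against 0.13 over all genes tested and -0.01 over 737 other protein-coding genes of the chromosome outside the interval. Of the 38, 35 differed by at least 1 on that scale, against 14.7% of all genes tested. Because the genes were chosen on this contrast, these shares describe the choice. Scaling by the median ratio of all genes moved the median of all genes from 0.13 to 0.02, so the differences given here include a shift of about that size; under it SPRED3 no longer lay above without overlap.

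Of the 33 genes that averaged 1 FPKM or more in 90, 31 were higher in PANC-1 in each of the 3 like-labelled pairs of libraries (NC, siALDOA 1 and siALDOA 2). The ratio of mean FPKM was at least 10 in 18 of them and at least 20 in 9, and another 13 had ratios between 2 and 10. Over all 12154 genes at that level, a ratio of at least 10 was found in 62 (0.51%), a count that includes these 18. The median ratio was 10.5 for the means, 10.3 for the NC pair, 12.4 for the siALDOA 1 pair and 9.98 for the siALDOA 2 pair. In 30 of the 33 genes the ratio was highest in the siALDOA 1 pair. The genes were chosen on this contrast, and the siALDOA numbers did not pair the libraries. For these counts over pairs, the share of all genes was not taken. Together the 44 genes made up 0.593%, 0.485% and 0.598% of summed FPKM in 90 NC, siALDOA 1 and siALDOA 2, and 7.15%, 7.14% and 6.07% in the PANC-1 libraries in that order.

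**Figure D1:**
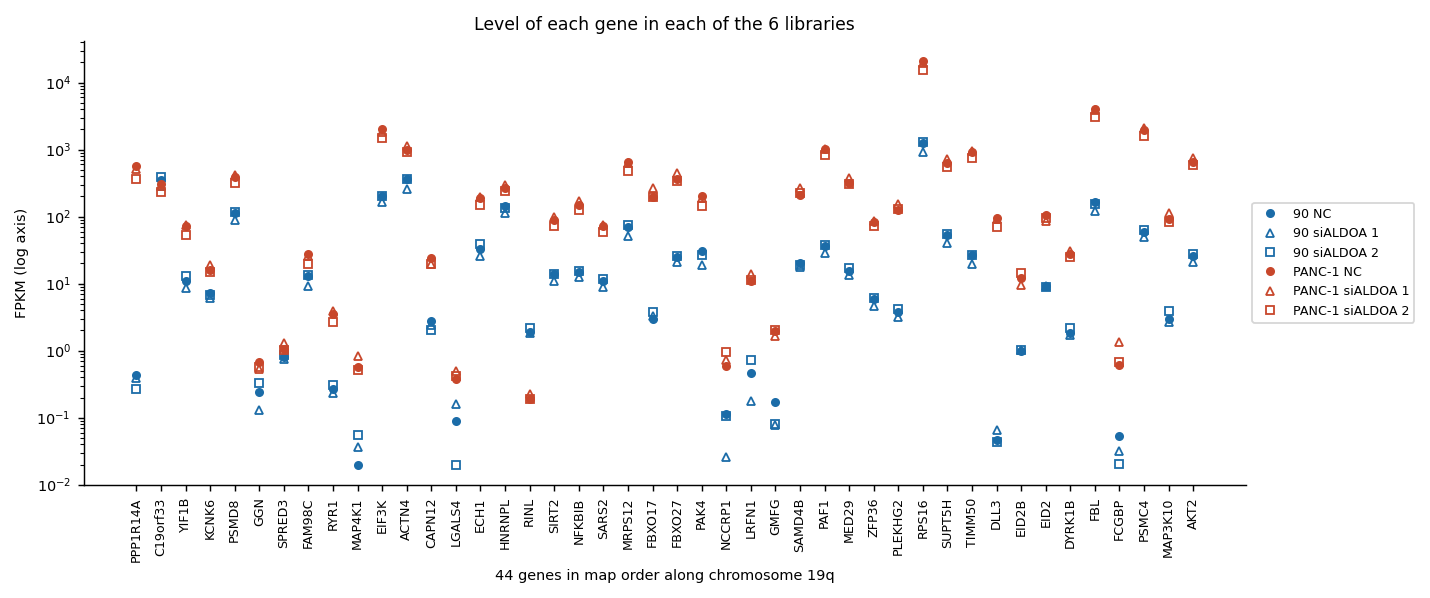
FPKM (log axis) of each of the 44 genes in map order, with 1 point per library, blue for 90 and red for PANC-1; filled circles are NC, triangles siALDOA 1 and squares siALDOA 2. The red points lie above the blue ones for 42 genes, RINL is reversed and C19orf33 overlaps; the value of 0 for LGALS4 in 90 siALDOA 2 is drawn at 0.02.

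Among the genes of the transcription machinery, PAF1, a subunit of the complex that travels with elongating RNA polymerase II, was at 36.2, 29.1 and 37.6 FPKM in 90 NC, siALDOA 1 and siALDOA 2 and at 1016, 1021 and 826 in the PANC-1 libraries in the same order, which is also kept below. Its means were 34.3 ± 4.57 and 954 ± 111 FPKM (SD, n = 3 libraries of a line, NC and siALDOA together), a ratio of 27.8. MED29, a subunit of the Mediator that links activators to the polymerase, had 15.4, 13.5 and 17.1 FPKM against 318, 375 and 303, a ratio of 21.7. SUPT5H, the large subunit of the elongation factor DSIF, had 53.6, 40.9 and 54.5 FPKM against 628, 733 and 544, a ratio of 12.8. For all 3 genes the lowest PANC-1 library was far above the highest 90 library. HNRNPL, an RNA-binding protein of splicing, lay close to the lower end, with 145, 115 and 135 FPKM against 263, 299 and 244 and a ratio of 2.04.

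The genes of protein synthesis included the most abundant transcript of the group. RPS16, a protein of the small ribosomal subunit, was at 1273, 909 and 1305 FPKM in 90 and 21070, 19854 and 15166 in PANC-1, a ratio of 16.1. This was 0.188% to 0.245% of summed FPKM in 90 and 3.19% to 3.98% in PANC-1, the largest share of any of the 44 genes. The 10 rows of RPS16 pseudogenes reached at most 2.24 FPKM in any library. FBL, the methyltransferase of box C/D ribonucleoproteins that modify ribosomal RNA, had 164, 123 and 155 FPKM against 3975, 3867 and 3078, a ratio of 24.7. EIF3K, a subunit of the initiation factor eIF3, had 205, 164 and 204 FPKM against 2001, 1831 and 1499, a ratio of 9.30.

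Genes for mitochondrial proteins were higher as well. MRPS12, of the small subunit of the mitochondrial ribosome, had 70.3, 51.0 and 75.1 FPKM in 90 against 649, 635 and 487 in PANC-1, a ratio of 9.02. SARS2, the mitochondrial seryl-tRNA synthetase, had a ratio of 6.58; 1492 of its exonic bases (46.2%) are shared with the annotated gene AC011455.2 on the same strand and 349 with MRPS12 on the other, and because the use of strand in counting is not given, reads from these bases cannot be told apart. TIMM50, the receptor subunit of the TIM23 import complex of the inner membrane, had 26.7, 19.5 and 26.9 FPKM against 927, 961 and 739, a ratio of 35.9. ECH1, an enzyme of fatty acid oxidation, had a ratio of 5.43.

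Both proteasome genes encode parts of the 19S regulatory particle, which unfolds substrates and feeds them into the core. PSMC4, an ATPase subunit, was at 58.4, 48.9 and 63.3 FPKM in 90 and 1936, 2067 and 1598 in PANC-1, a ratio of 32.8. PSMD8, a lid subunit near the other end of the interval, was at 114, 88.5 and 116 FPKM against 392, 416 and 322, a ratio of 3.55. FBXO17 and FBXO27 encode substrate adaptors of SCF ubiquitin ligases. FBXO17 had 2.97, 3.28 and 3.84 FPKM against 196, 265 and 197, and its ratio of 65.2 was the largest of the 33 genes. FBXO27 had a ratio of 16.1.

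Among the kinases, AKT2, which acts below phosphoinositide 3-kinase, was at 26, 21 and 27.4 FPKM in 90 and 645, 749 and 589 in PANC-1, a ratio of 26.7. PAK4, a p21-activated kinase, had 30.8, 18.7 and 26.6 FPKM against 204, 192 and 146, a ratio of 7.13. MAP3K10 (ratio 30.1) and DYRK1B (ratio 14.5) were lower in level, with means of 95.7 and 27.7 FPKM in PANC-1. MAP4K1, a kinase of blood cells, averaged 0.0375 FPKM in 90 and 0.637 in PANC-1, and with such values its level was under 1 FPKM in both lines. NFKBIB, an inhibitor that holds NF-kB in the cytoplasm, had 14.9, 12.6 and 15.7 FPKM against 151, 170 and 127, a ratio of 10.4. It starts head to head with SIRT2, an NAD-dependent deacetylase, which had 13.8, 11.1 and 14.1 FPKM against 90.4, 97.7 and 73.0, a ratio of 6.68.

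For the cytoskeleton, ACTN4, an actin-crosslinking alpha-actinin, was at 365, 260 and 365 FPKM in 90 and 976, 1137 and 915 in PANC-1, a ratio of 3.06. CAPN12, a calpain protease whose exons share 868 bases with ACTN4 on the other strand, had a ratio of 8.71. PLEKHG2 had 3.79, 3.15 and 4.21 FPKM against 124, 156 and 131, a ratio of 37.0. PPP1R14A, an inhibitor of myosin phosphatase and the first gene of the interval, was at 0.434, 0.396 and 0.270 FPKM in 90 and 569, 507 and 370 in PANC-1. No ratio is given for it or for the other 10 genes that averaged under 1 FPKM in 90; its log2 difference of 8.44 (SE 0.176) was the largest of the 44.

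DLL3, a ligand-like member of the Notch family, had the next largest log2 difference, 6.35 (SE 0.182), with 0.0472, 0.0646 and 0.0441 FPKM in 90 against 95.1, 92.8 and 69.7 in PANC-1. Its levels in 90 are below those of 3 fragments on a gene of 1 kb. ZFP36, which binds AU-rich elements and promotes mRNA decay, had 5.91, 4.68 and 6.03 FPKM against 81.8, 87.1 and 73.0, a ratio of 14.6. SAMD4B, an RNA-binding protein, had a ratio of 12.3, and EID2 and EID2B, inhibitors of differentiation, 10.5 and 11.9. YIF1B, of transport between endoplasmic reticulum and Golgi, had a ratio of 6.13, and KCNK6, a potassium channel, 2.49. LRFN1 (12.1 FPKM on average in PANC-1), RYR1 (3.36), a calcium release channel, and GMFG (1.90) stayed below 1 FPKM in each 90 library.

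The genes with the lowest signed differences, PANC-1 minus 90, were at the proximal end, nearly silent or, for RINL, lower in PANC-1. C19orf33 was abundant in both lines, at 350, 289 and 386 FPKM in 90 and 311, 291 and 236 in PANC-1, with a log2 difference of -0.29 (SE 0.166); 49.3% of its exonic bases are shared with a second annotated gene on the same strand. RINL, related to exchange factors of Rab proteins, was at 1.87, 1.84 and 2.14 FPKM in 90 and 0.190, 0.224 and 0.192 in PANC-1, the only gene of the 44 below in all libraries (log2 difference -1.30, SE 0.152), as were 25.1% of all genes tested. FAM98C had a ratio of 2.02. SPRED3 had 0.809, 0.758 and 0.870 FPKM against 1.07, 1.32 and 1.01, a log2 difference of 0.23, and GGN, a testis gene, 0.238, 0.130 and 0.333 against 0.676, 0.542 and 0.564, a log2 difference of 0.37. LGALS4, NCCRP1 and FCGBP averaged 0.432, 0.752 and 0.874 FPKM in PANC-1 and under 0.1 in 90.

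Read along the map, the ratios of genes with at least 1 FPKM in 90 were smaller at the proximal end and larger at the distal end. PPP1R14A, at the proximal end, is an exception by its log2 difference, the largest of the 44, and has no ratio. Splitting the interval after the values were seen, the 10 genes from C19orf33 to HNRNPL with at least 1 FPKM in 90 had a median ratio of 3.30, from 0.817 for C19orf33 to 9.30 for EIF3K. The 8 genes from RINL to PAK4 had a median of 8.08, from 0.103 to 65.2 for FBXO17. The 10 such genes from SAMD4B to EID2 had a median of 15.3, from 10.5 for EID2 to 37.0 for PLEKHG2. The last 5, DYRK1B to AKT2 without FCGBP, had a median of 26.7, from 14.5 for DYRK1B to 32.8 for PSMC4. Every gene with a ratio of at least 20 except FBXO17 lay at or beyond PAF1. Neighbours that start within 1000 bases of each other on opposite strands, where both have a ratio, had ratios of like size: PAF1 and MED29 (27.8 and 21.7), RPS16 and SUPT5H (16.1 and 12.8), SIRT2 and NFKBIB (6.68 and 10.4), and SARS2 and MRPS12 (6.58 and 9.02). The last pairs, with SIRT2 and with SARS2, share 40 and 349 exonic bases. Other adjacent genes were not compared as a set. Some were as close, such as MAP3K10 and AKT2 (30.1 and 26.7), and others were not, such as FBXO17 and FBXO27 (65.2 and 16.1).

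**Figure D2:**
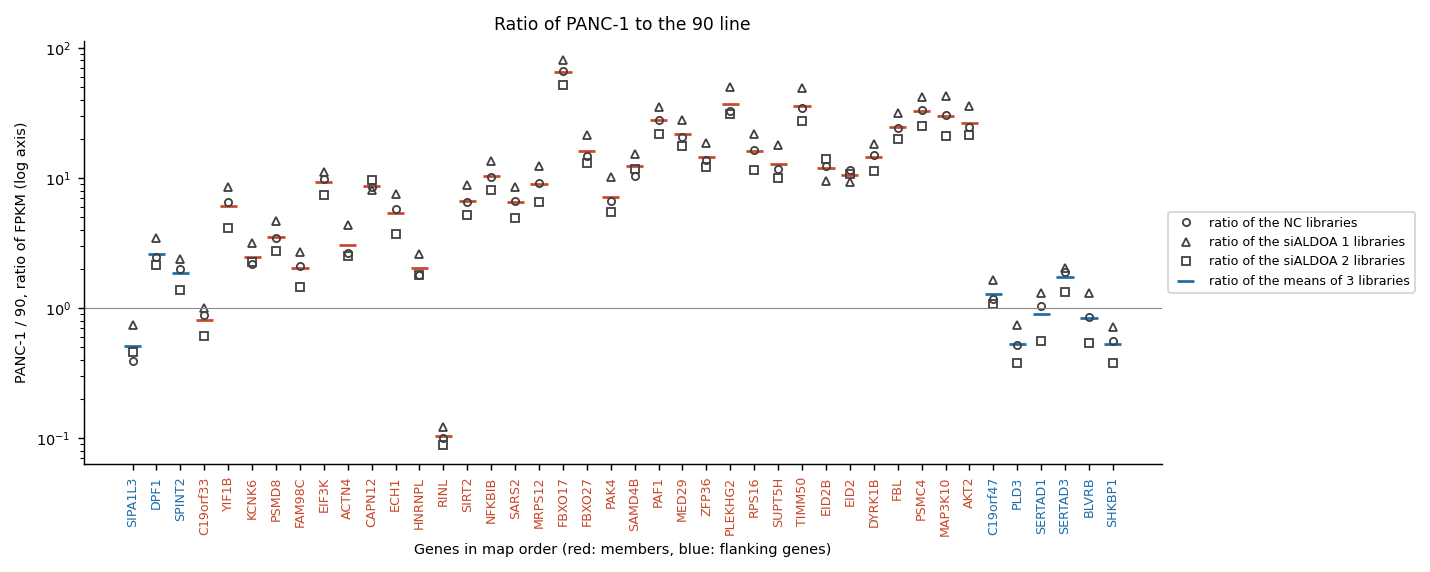
Ratio of FPKM in PANC-1 to FPKM in 90 (log axis) for genes with at least 1 FPKM in 90, in map order, members in red and flanking genes in blue on the axis. Circles, triangles and squares are the NC, siALDOA 1 and siALDOA 2 pairs and bars the ratio of the means of 3 libraries; ratios climb toward AKT2 and the next gene, C19orf47, is at 1.29.

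The distal edge was abrupt. AKT2 had a ratio of 26.7, and C19orf47, which begins 33999 bases beyond its end, was at 13.2, 11 and 13.1 FPKM in 90 and 15.6, 18.2 and 14.2 in PANC-1, a ratio of 1.29. Its log2 difference was 0.34 (SE 0.168, limma adjusted p 0.187). The interval was itself bounded by reading this contrast, so the tests of flanking genes describe those genes and give no independent support to an edge. Of the 6 nearest tested protein-coding genes beyond AKT2, limma called 1 higher in PANC-1 and 2 lower at an adjusted p under 0.05, against 20.4% and 18.4% of all genes tested, and their median was -0.19. SERTAD3 was higher (0.73, limma adjusted p 0.0262), PLD3 (-0.89, limma adjusted p 0.0237) and SHKBP1 (-0.88, limma adjusted p 0.0219) were lower, and SERTAD1 (-0.13) and BLVRB (-0.24) did not pass.

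The proximal edge was less clear. SPINT2, a protease inhibitor whose annotated span contains PPP1R14A, was at 372, 317 and 443 FPKM in 90 and 749, 758 and 610 in PANC-1, a log2 difference of 0.91 (limma adjusted p 0.0144). DPF1 was higher (1.14, limma adjusted p 0.008) and SIPA1L3 lower (-0.88, limma adjusted p 0.0249). Before these lie the zinc finger genes HKR1, ZNF569 and ZNF567, which averaged under 1 FPKM in 90 and passed the filter on low values only through PANC-1. Their log2 differences of 2.58, 1.75 and 0.92 are therefore a description. All 6 genes beyond AKT2 averaged 1 FPKM or more in 90, so the 2 sides were not compared.

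A running median over 5 protein-coding genes stayed at or above 1 on the log2 scale from PPP1R14A to AKT2, over 43 tested genes with a median of 3.21. The same scan over all chromosomes found 197 such stretches, of which this had the most genes. The next, on chromosome 11 from APBB1 to CSNK2A3, held 36 genes with a median of 1.34. Shorter stretches with smaller medians also lay on chromosome 19. Before PPP1R14A they included ANKRD27 to GPATCH1 (6 genes, median 1.32), KCTD15 to WTIP (7, 1.22), KMT2B to APLP1 (9, 1.21) and THAP8 to COX7A1 (6, 1.61). Beyond AKT2 they included MYADM to OSCAR (6, 1.5) and PPP1R12C to PPP6R1 (7, 1.09). A smaller excess in PANC-1 was thus also found before the interval. AKT2 was the last gene of the stretch with windows of 3, 7 and 9 genes and with thresholds of 0.5 and 1.5, while its first gene moved: C19orf33, SIPA1L3 and DPF1 with these windows, and SYNE4 and PSMD8 with these thresholds. With 90 siALDOA 2 or PANC-1 siALDOA 2 left out it began at ZNF569 and held 47 genes. Without the filter on low values it shrank to 19 genes, MAP4K1 to PAK4, a setting under which the silent genes of the interval enter the running median.

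**Figure D3:**
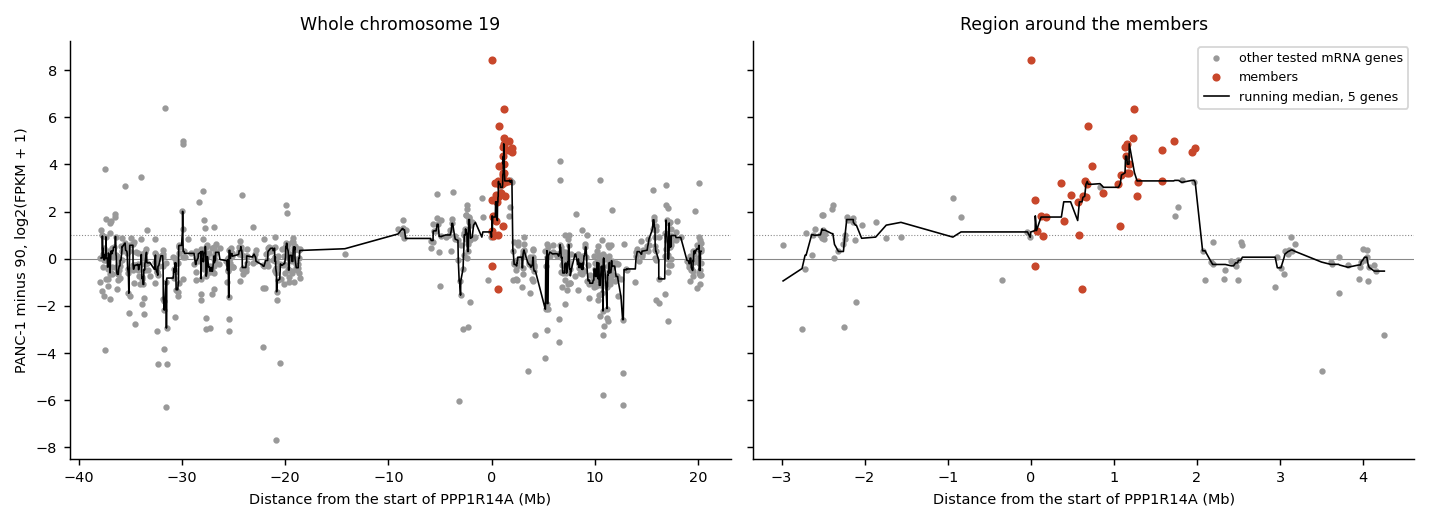
Log2 difference of FPKM + 1, PANC-1 minus 90, of tested protein-coding genes of chromosome 19 against distance in Mb from the start of PPP1R14A (left the whole chromosome, right the surroundings). Red points are members, grey points other genes, and the line is the running median over 5 genes; it lies above the dotted line at 1 from PPP1R14A to AKT2, falls to 0.34 at C19orf47 and is at 0.91 to 1.14 over ZNF569, SIPA1L3, DPF1 and SPINT2 on the other side.

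The interval holds 38 further rows of the table, of which 21 were protein-coding and 5 of these were tested: PAPL, ZNF546, ZNF780B, ZNF780A and TTC9B. Only PAPL averaged 1 FPKM or more in 90. The other 4 passed the filter on low values only through PANC-1, so a higher level there was fixed by the filter and their values are a description. PAPL, an acid phosphatase-like gene, was at 5.24, 3.67 and 4.95 FPKM in 90 and 43.3, 53.1 and 38.6 in PANC-1, a log2 difference of 3.03 (limma adjusted p 0.000505). ZNF780A had 0.265, 1.34 and 0.247 FPKM against 15.0, 6.47 and 30.1 (log2 difference 3.33), and the differences of ZNF546, ZNF780B and TTC9B were 1.81, 2.18 and 3.24. In PANC-1 the 3 zinc finger genes were lowest in siALDOA 1 and highest in siALDOA 2. Of the 38 tested genes, 30 were lowest in siALDOA 2. The share of all genes lowest in that library was not counted. The other 16 protein-coding rows were not tested, and SYCN, CLC, LEUTX and LGALS16 were listed at 0 in all libraries. MIR641, a microRNA row inside the span of AKT2, was at 0.568, 1.55 and 3.18 FPKM against 27.9, 37.5 and 41.5 (3.82, limma adjusted p 0.000541), and reads of AKT2 and MIR641 cannot be told apart there.

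Several of the 44 genes encode subunits of complexes whose other subunits lie elsewhere in the genome, and these partners can be tested. Of 184 tested partners in 17 lists, limma called 36 higher in PANC-1 (20.4% of all genes tested were) and 22 lower (18.4%), and their median was 0.23. None of the tested partners in the lists of PSMC4, PSMD8, PAF1, SUPT5H, MED29, EIF3K, FBL, MRPS12 and TIMM50 had as large a log2 difference as the gene of the 44 in its list. In the list of RPS16 only RPS28 did. The 44 genes were chosen on this contrast and the partners were not, so this order follows in part from the choice. Left-out libraries moved the counts of partners called higher and lower: they were 14 and 6 without 90 NC, 14 and 6 without PANC-1 NC, 21 and 6 without PANC-1 siALDOA 2, 24 and 16 without 90 siALDOA 1, and 28 and 10 without 90 siALDOA 2. Each call given below as lost without 90 NC was also lost without PANC-1 NC, and some of them with other libraries left out. Of the 58 calls, 17 held under every alternative that was run.

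By length-scaled level, each of these subunits was above all its tested partners in PANC-1. RPS16 averaged 18696 FPKM there, against 2891 for RPS2, the highest of 31 other proteins of the small ribosomal subunit, whereas in 90 it averaged 1162 and 10 of the 31 were above it. PSMC4 averaged 1867 FPKM in PANC-1 against 338 for PSMD2, and in 90 8 of 16 partners were above it. PSMD8, at 377 FPKM in PANC-1, was only a little above PSMD2, and in 90 6 of 16 partners were above it. PAF1 stood at 954 FPKM against 42.5 for WDR61 in PANC-1, and in 90 WDR61 was above it. TIMM50 stood at 876 FPKM against 155 for HSPA9, with 7 of 9 partners above it in 90. FBL and EIF3K were above all their tested partners in both lines.

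Among the partners of the proteasome 19S particle, limma called 3 of 16 higher and none lower. PSMD13 was at 76.2, 66.6 and 78.9 FPKM in 90 and 254, 263 and 206 in PANC-1 (1.69, limma adjusted p 0.00106), while the calls of PSMD11 (0.67, limma adjusted p 0.0117) and PSMD4 (0.60, limma adjusted p 0.0412) were lost without 90 NC. None of the 5 partners of PAF1 passed (1 did without PANC-1 siALDOA 1), the smallest p being that of CTR9 (1.52, limma adjusted p 0.342), which had 1.38, 12 and 2.0 FPKM against 15.6, 2.73 and 34.3. None of the 5 DSIF and NELF partners of SUPT5H passed, the smallest p being that of SUPT4H1 (-0.32, limma adjusted p 0.243). In Mediator 2 of 29 were called higher and 5 lower (0 and 2 without either NC library, 1 and 2 without 90 siALDOA 2, 1 and 1 without PANC-1 siALDOA 2), with MED15 at -1.48 (limma adjusted p 0.00366), MED18 at 1.17 (limma adjusted p 0.00515) and MED30 at -1.03 (limma adjusted p 0.0139); the call of MED18 was lost without 90 NC and that of MED30 without siALDOA 2 of either line.

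**Figure D4:**
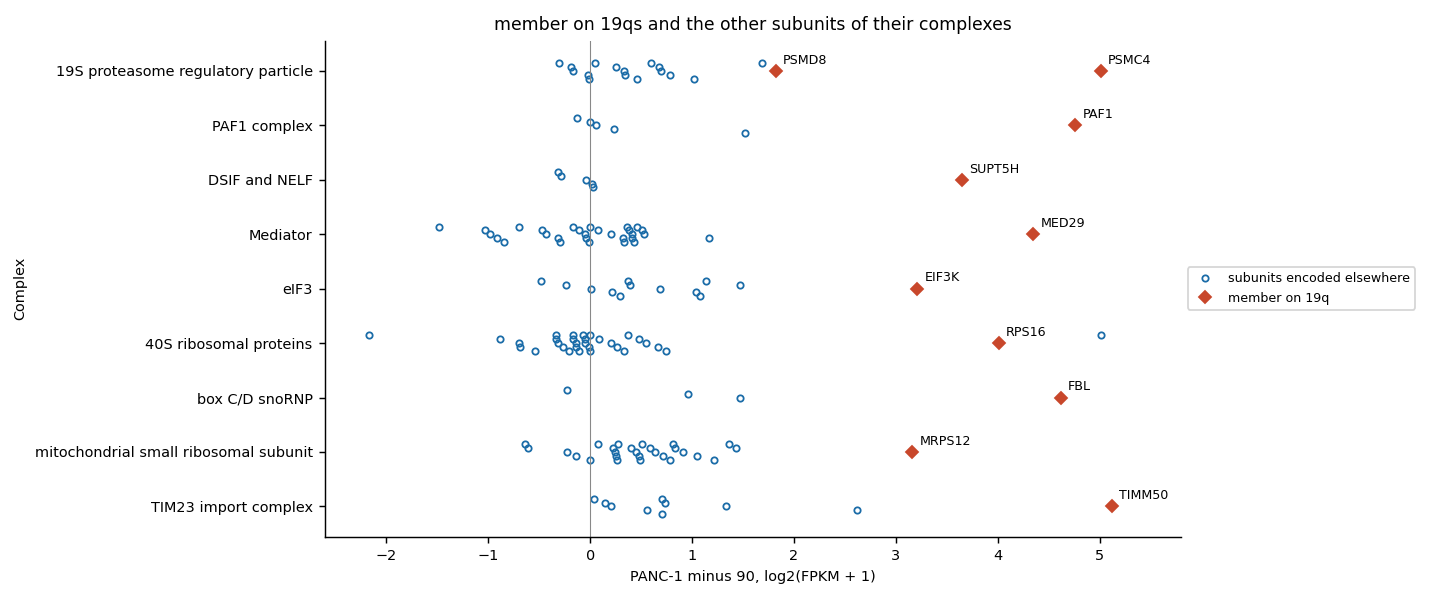
Log2 difference of FPKM + 1, PANC-1 minus 90, for members (red diamonds, named) and for the tested subunits of the same complex encoded elsewhere (blue circles). Each diamond lies to the right of the circles of its complex, apart from RPS16, where RPS28 at 5.01 lies further right. The members, unlike the other subunits, were chosen on this difference.

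In eIF3, 3 of 12 partners were called higher and 1 lower: EIF3B (1.47, limma adjusted p 0.00147), EIF3I (1.14, limma adjusted p 0.00473) and EIF3F (1.04, limma adjusted p 0.00846, lost without either NC library) had the largest changes among those called. Without either NC library the counts were 2 and 0. Of 31 small subunit ribosomal proteins 5 were called in each direction, which became 1 in each without either NC library, with RPS28 at 5.01, RPS6 at -2.17 (limma adjusted p 0.000299) and RPS29 at -0.89 (limma adjusted p 0.0305, lost without either NC library). RPS28 is uncertain: it was at 19, 13.6 and 17.6 FPKM in 90 and 660, 613 and 444 in PANC-1, while its pseudogene RPS28P7 was at 1071, 760 and 1089 against 16.2, 17.6 and 8.54. The summed FPKM of that pair was 1090, 774 and 1106 in 90 and 676, 630 and 453 in PANC-1, the opposite order. Of 3 box C/D partners of FBL, NOP56 was called higher (0.96, limma adjusted p 0.00242).

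Of 27 mitochondrial small subunit proteins 12 were called higher and 1 lower, and 5 and 0 without either NC library. Among those called, the largest changes were those of MRPS17 (1.43, limma adjusted p 0.000956), MRPS24 (1.36, limma adjusted p 0.00423) and MRPS16 (1.21, limma adjusted p 0.00353). Of 9 import partners of TIMM50 3 were called higher and none lower, TIMM21 (2.62, limma adjusted p 0.0108), PAM16 (1.33, limma adjusted p 0.00443) and TIMM17B (0.70, limma adjusted p 0.0468). The calls of TIMM21 and TIMM17B were lost without either NC library.

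Relatives and pathway partners of the remaining genes showed no common direction. Of 10 AKT pathway genes 1 was called higher and 2 lower: PDPK1, which activates AKT kinases, at -0.87 (limma adjusted p 0.0266), PHLPP1, an AKT phosphatase, at -0.78 (limma adjusted p 0.0352) and MTOR at 0.68 (limma adjusted p 0.0336), all of them lost without 90 NC. AKT1 was at 139, 117 and 151 FPKM in 90 and 91.0, 106 and 85.9 in PANC-1 (-0.52, limma adjusted p 0.0544). Of 3 other p21-activated kinases PAK6 was lower, at 27.8, 17.3 and 23.3 FPKM against 0.770, 0.651 and 0.684 (-3.78, limma adjusted p 0.000273), and ACTN1, the 1 tested relative of ACTN4, did not pass (-0.44, limma adjusted p 0.119). Of 4 other Notch ligands and receptors 3 were called lower, JAG2 (-1.43, limma adjusted p 0.00447), JAG1 (-1.08, limma adjusted p 0.0115) and NOTCH1 (-0.95, limma adjusted p 0.0214). The calls of JAG1 and NOTCH1 were lost without 90 NC. With either NC library left out, 1 gene of this list was called higher and 1 lower.

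Of 6 NF-kB genes 3 were called higher and 2 lower (1 and 0 without either NC library), with NFKBIE at 1.61 (limma adjusted p 0.00382), NFKB2 at 1.19 (limma adjusted p 0.0059) and NFKB1 at -0.73 (limma adjusted p 0.0142); the calls of NFKB2 and NFKB1 were lost without 90 NC. Of 16 other hnRNP genes HNRNPC was called higher (0.39, limma adjusted p 0.0311, lost with any 1 library left out). Of 5 other sirtuins SIRT3 was higher (1.70, limma adjusted p 0.00163) and SIRT6 lower (-1.07, limma adjusted p 0.0266, lost without 90 NC). In the ZFP36 family ZFP36L1 was lower (-3.30, limma adjusted p 0.000228) and ZFP36L2 higher (0.93, limma adjusted p 0.0143, lost without 90 NC).

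The effect of siALDOA took no part in choosing the 44 genes and was tested. Over both lines limma called none of the 38 genes, and none reached an unadjusted p under 0.05; over all 12592 genes limma called 0 (0% of genes tested) and 43 had an unadjusted p under 0.05. ALDOA itself had a log2 change of -1.12 (SE 0.16, unadjusted limma p 0.000907) and an adjusted p of 1. The median change of the 38 genes was -0.09, against 0.01 over all genes tested, and 9 of 38 were above 0. Within 90 it was -0.11 (all genes -0.03) and within PANC-1 -0.09 (all genes -0.01), again with no gene of the 38 called or under an unadjusted p of 0.05, while 33 and 21 of all genes were under it and limma called 0. The difference of the effects between lines gave no call either, with 24 genes of all tested under an unadjusted p of 0.05. In each of these tests the genes under 0.05 were far fewer than that threshold gives without any effect. The reason for this was not tested. The lack of calls among the 38 genes does not show that siALDOA left them unchanged.

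The genes with the smallest p were PAK4 (-0.37, SE 0.203, limma p 0.131, adjusted p 1) and CAPN12 (-0.24, SE 0.159, limma p 0.183, adjusted p 1) on the lower side. On the higher side they were FBXO17 (0.21, SE 0.171, limma p 0.276, adjusted p 1) and PLEKHG2 (0.08, SE 0.173, limma p 0.661, adjusted p 1). Library by library, the 38 genes had a median change from NC of -0.26 in 90 siALDOA 1 and 0.04 in 90 siALDOA 2. Over all genes tested these medians were -0.02 and 0.0. Of the 38 genes, 3 and 27 were above NC. In PANC-1 the medians of the 38 were 0.08 in siALDOA 1 and -0.26 in siALDOA 2, against 0.02 and 0.03 over all genes tested. Here 25 and 7 of the 38 were above NC. The share of all genes above NC was not counted. By the medians of the 38 genes, the 2 siALDOA libraries of a line thus lay on different sides of NC, and in the opposite order in the 2 lines.

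Base composition moved with this pattern. The 38 genes have a median GC content of 58.1%, against 49.6% over all tested genes and 59.9% over the other tested protein-coding genes of chromosome 19. Genes of any chromosome with 54.1% to 61.0% GC, the middle range of the 38, had median changes from NC of -0.23 and 0.08 in 90 siALDOA 1 and 2 and of 0.13 and -0.15 in PANC-1 siALDOA 1 and 2. With the GC trend removed, the median difference between the lines over the 38 genes was 3.31, against 3.23 without. The part of base composition in the changes under siALDOA was not tested.

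**Figure D5:**
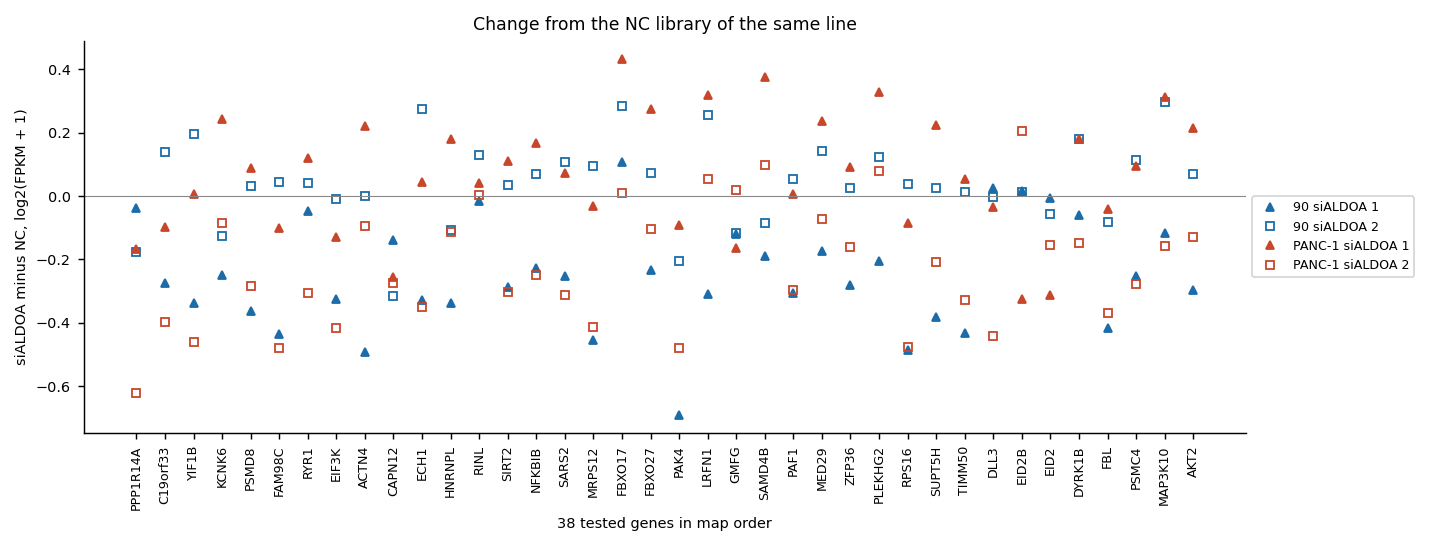
Change in log2(FPKM + 1) from the NC library of the same line for the 38 tested genes in map order, 1 point per siALDOA library (blue 90, red PANC-1, triangles siALDOA 1, squares siALDOA 2). Blue triangles and red squares lie mostly below 0, with medians of -0.26 each, and PAK4 in 90 siALDOA 1 is the lowest point.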

How the data were processed

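The authors deposited FPKM values per gene and library; per the submitters' processing notes, HISAT2 and featureCounts were used with hg38; versions, settings and use of strand are not stated in the sources at hand. Of 41769 rows 1 had no gene name. Depth was read from the FPKM steps of short RNA genes, where 97.2% to 97.7% of values were whole multiples up to 8 (tolerance 0.03). Intervals for single values were not computed, since lengths behind the FPKM of other genes are not given. Positions and exons came from GENCODE on GRCh38, and 12101 of 12592 tested genes were placed.

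Values were analysed as log2(FPKM + 1), which understates changes of low genes, in genes averaging 1 FPKM or more. Tests used limma 3.58.1 in R 4.3.3 with an intensity trend and Benjamini-Hochberg adjustment over all tested genes, at an adjusted p of 0.05: line and siALDOA as terms, or 4 group means for effects within a line, where a single NC library is taken to vary as the siALDOA libraries do. On simulated data with 200 of 12592 genes changed, the fit for the lines called 74% of genes changed by 2 on the log2 scale and 98% of those changed by 4, with 13 false calls, and the fit for siALDOA 75% and 95%, with 5. The simulated spread was independent from gene to gene and library to library. The real siALDOA libraries had deviations shared over many genes, so these shares need not hold for the real data.

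The members and lists were chosen with earlier results of these data known. Named in full were the 6 highest and 4 lowest genes by log2 difference, the interval's ends and subunits of listed complexes; 6 flanking genes on each side; up to 3 called partners per list with the largest change, otherwise that with the smallest p; and 2 genes per direction for siALDOA. KRT, VIM and leukocyte markers checked the cell type; a further leukocyte marker is not reported here. Alternatives were other pseudocounts, filters, scalings, a GC correction, a replicate block and left-out libraries. RefSeq promoters (GRCh38.p14) were matched by symbol.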

Additional observations from a re-analysis of the deposited data

Results flagged for a closer look

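SAMD4B was lower than NC in both siALDOA libraries of 90 (17.5 and 18.9 FPKM, NC 20.1) and higher than NC in both siALDOA libraries of PANC-1 (269 and 222 FPKM, NC 207), so all libraries of 1 line moved opposite to those of the other. The difference of the effects, PANC-1 minus 90, was 0.37 on the log2 scale (SE 0.345, limma p 0.34, adjusted p 1), which did not pass the test.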

How the results depend on the processing

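With 1 library in each NC group and FPKM in place of counts, small changes of these genes were not detectable, and levels under about 0.2 FPKM rest on few fragments. No result reversed. The median difference of the genes was 2.98 over all 44 genes without a filter, 3.59 in the siALDOA 1 libraries alone and 2.93 in the siALDOA 2 libraries alone, and 3.15 to 3.32 with 1 library left out. The stretch held 19 genes without a filter and 43 to 47 with 1 library left out. Genes called higher in PANC-1 numbered 2567, and 1607 under median-ratio scaling; with 1 library left out they ranged from 1149 to 2115 and those called lower, 2315, from 1268 to 2041. Partners called higher, 36, ranged from 14 to 28 and those called lower, 22, from 6 to 16 with 1 library left out; they were 16 and 14 under median-ratio scaling, and 14 were lower without a filter. Without a filter limma also called 38 genes for siALDOA in 90 and 49 in PANC-1, of 27007 genes, none of them among the 38 genes; the cause was not tested.

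The siALDOA numbers did not pair the libraries: deviations of siALDOA 1 in the 2 lines had a correlation of -0.86 over 12592 genes. With a replicate block 1620 genes were called higher, and 20 partners higher and 6 lower. With the pairing crossed, an alternative chosen after seeing the data, 4177 genes were called higher, and 78 partners higher and 44 lower. Without siALDOA 1 of both lines, also chosen after seeing the data, 4584 genes and 63 partners were called higher and 17 genes were called for siALDOA over both lines. Over all comparisons 197 of the values recomputed were graded as unchanged, 27 as moved, and 3 counts rose from 0. The grade is a loose one. Genes called lower, 2315, were graded as unchanged at 1638 with the replicate block and at 3417 with the pairing crossed. Many of the other unchanged values are siALDOA counts that stayed at 0.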
